A study of Homo sapiens with 12 samples.

Results

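The 6 genes ANP32A, ANP32B, ANP32E, SET, NAP1L1 and NAP1L4 encode acidic histone chaperones. Their peaks were taken by gene symbol from 4 lists of RNA stretches pulled down by an N4-acetylcytidine (ac4C) antibody, and they are 6 of the 10992 genes that had a peak in any list. Together they held 30 and 30 peaks in the lists of NAT10 knockdown cells, against 28 and 33 in the lists of wild-type cells. These were 30 of 27787 and 30 of 36476 peaks in knockdown, and 28 of 37988 and 33 of 38150 in wild type.

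The cells belonged to H1, a widely used line of human embryonic stem cells. The NAT10_KD cells carried shNAT10, a short hairpin RNA against NAT10 delivered by a GFP lentivirus (GV112 vector), were cultured for 48 h, enriched for GFP, and then grown under puromycin (0.5 ug/ml) in TeSR-E8. The WT cells are labelled wild type, and the labels name no control hairpin for them, so NAT10 loss and the steps of transduction, enrichment, medium and puromycin cannot be told apart. There were 2 immunoprecipitation libraries per genotype, each with its own peak list, and nothing in the labels says that they came from separate cultures, so any p-value measures only the spread between these libraries. The 12 samples also hold input and IgG libraries, which were not analysed here, and the lists hold no read counts: depth is unknown, and whether a transcript was more or less abundant is not seen.

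N4-acetylcytidine is a modified cytidine that the acetyltransferase NAT10 writes into RNA. Histone chaperones bind free histones, shield their charge and hand them to or take them from DNA. ANP32 proteins join leucine-rich repeats to an acidic tail: ANP32A and SET were also described as inhibitors of protein phosphatase 2A and of histone acetylation, and ANP32E takes the variant histone H2A.Z out of nucleosomes. NAP1L1 and NAP1L4 belong, with SET, to the nucleosome assembly protein family, and they bind histones H2A and H2B.

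NAT10 itself had 0 and 0 peaks in the knockdown lists, against 7 and 9 in the wild-type lists. Of 12 stem cell marker genes, 9 and 11 had a peak in the knockdown lists and 12 and 11 in the wild-type lists. These markers summed to 51 and 61 peaks in knockdown, against 91 and 81 in wild type, and 6 of the 12 had fewer and 1 had more peaks in both knockdown lists than in either wild-type list, beside 22.3 and 16.6% of all genes. The part of this in the members' values was not tested. DNMT3B, a DNA methyltransferase of these cells, had 0 and 0 in knockdown, against 14 and 10 in wild type, and is named after its values were seen. Of 12 markers of other lineages 1 had peaks, OTX2 of ectoderm, with 2 in wild-type replicate 1. A peak list gives no RNA level, and in such bulk samples fewer cells of a type and less RNA per cell cannot be told apart. Lists differed in length, and genes with a peak held on average 4.01 and 4.63 peaks in the knockdown lists and 5.48 and 5.18 in the wild-type lists.

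Gene by gene, the numbers of listed peaks set NAP1L1 apart from the other members. It was listed only in knockdown, whereas the other 5 genes had a peak in all 4 lists, and 4 of those 5 had fewer peaks in both knockdown lists than in either wild-type list. A gene is called gained here if both knockdown lists and neither wild-type list held a peak in it, lost if only the wild-type lists did, and kept if none of the 4 lists lacked one. Among all 10992 genes 8.73% were gained, 6.54% lost and 32.3% kept. The members counted 1 gained, 0 lost and 5 kept. Of the 62 separate regions they held, 9 were gained, 7 of them in NAP1L1, which has no wild-type peak. By the same rule 10 were lost and 6 kept. These shares stand beside 6.49% gained, 7.37% lost and 3.4% kept among all regions. All regions include those of genes that were neither gained, lost nor kept, and no member was such a gene. Shares within gained or kept genes alone were not computed. With only 1 library for a genotype these shares lay near those of all regions in some settings: without wild-type replicate 2, 34.6% of the members' regions and 34.9% of all regions were lost, and without knockdown replicate 1, 27.1 and 28.4% were gained.

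**Figure D1:**
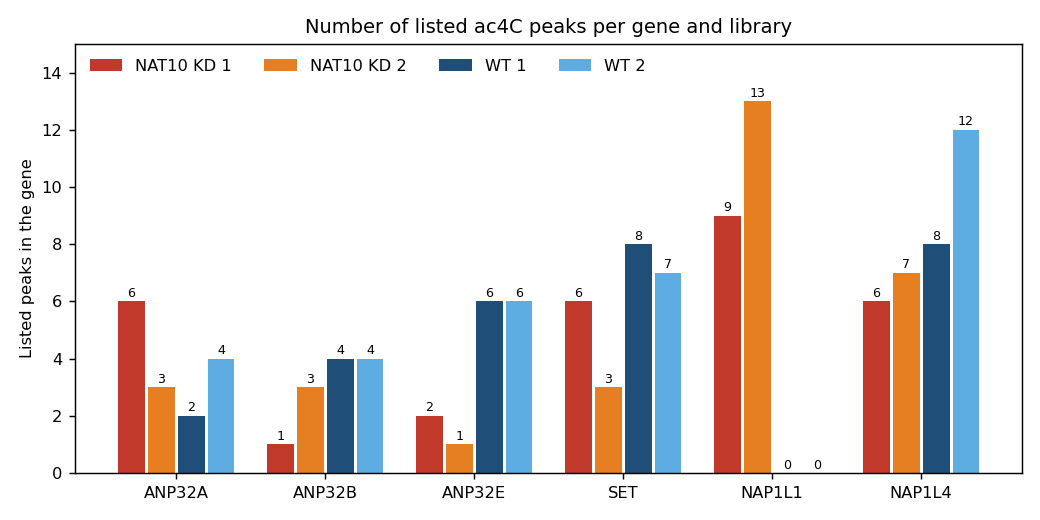
Number of listed ac4C peaks (vertical axis) in each of the 6 genes, 1 bar per library, with NAT10 knockdown libraries left of wild-type libraries. NAP1L1 stands at 9 and 13 in knockdown and 0 and 0 in wild type, and ANP32E at 2 and 1 against 6 and 6.

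NAP1L1 (ENSG00000187109) lies on the minus strand of chromosome 12 from 76036585 to 76084685, with gene bounds here and below from RefSeq (GRCh38.p14) and peak bounds from the lists (hg38). It had 9 and 13 peaks in the knockdown lists, against 0 and 0 in the wild-type lists. The groups did not overlap, and the means were 11 ± 2.83 in knockdown and 0 ± 0 in wild type (SD, n = 2 each), a difference of 11 (two-sided exact permutation p = 0.333). That is the smallest p that 2 libraries against 2 allow. It was reached by 4281 genes, and after Benjamini-Hochberg adjustment over all 10992 genes no value was under 0.856, so no gene could pass and the test separates none of these genes from the rest. More peaks in both knockdown lists than in either wild-type list were found in 16.6% of all genes. NAP1L1 enters that count only through the knockdown lists. Its difference was at the upper end of the series: 35 of 10992 genes, NAP1L1 included, had one as large, and among the 960 gained genes it ranked 7 by mean number of peaks.

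The absence of NAP1L1 from the wild-type lists does not show the absence of a call. Peaks are numbered in the order of gene identifiers, and numbers that no listed peak carries are taken here to mark peaks left out of a list. At the place of NAP1L1 there were 6 and 2 such numbers in the knockdown lists, of which 3 and 2 stood between its own peaks, and 24 and 14 in the wild-type lists. They may belong to NAP1L1 or to a gene beside it in the numbering.

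The knockdown peaks of NAP1L1 ran from the start of the gene to beyond its middle. Its 13 regions, formed by joining same-strand peaks with 1 bp or more in common, comprised 7 that both knockdown lists held and 6 of knockdown replicate 2 alone. Of the peaks, 5 had the same first and last base in both lists, which is 55.6% of the 9 peaks of knockdown replicate 1 and 38.5% of the 13 of replicate 2. The region from 76068902 to 76073811 had scores of 278 and 237, at percentiles 99.9 and 99.8 of their lists. The adjoining region from 76074187 to 76083854, with 9668 nt the longest peak of any member, had scores of 180 and 164. The score is the authors', its meaning is not stated, and it is used here for ranks inside 1 list. A short region from 76049190 to 76049264 followed in both lists, with scores of 31.4 and 125.

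**Figure D2:**
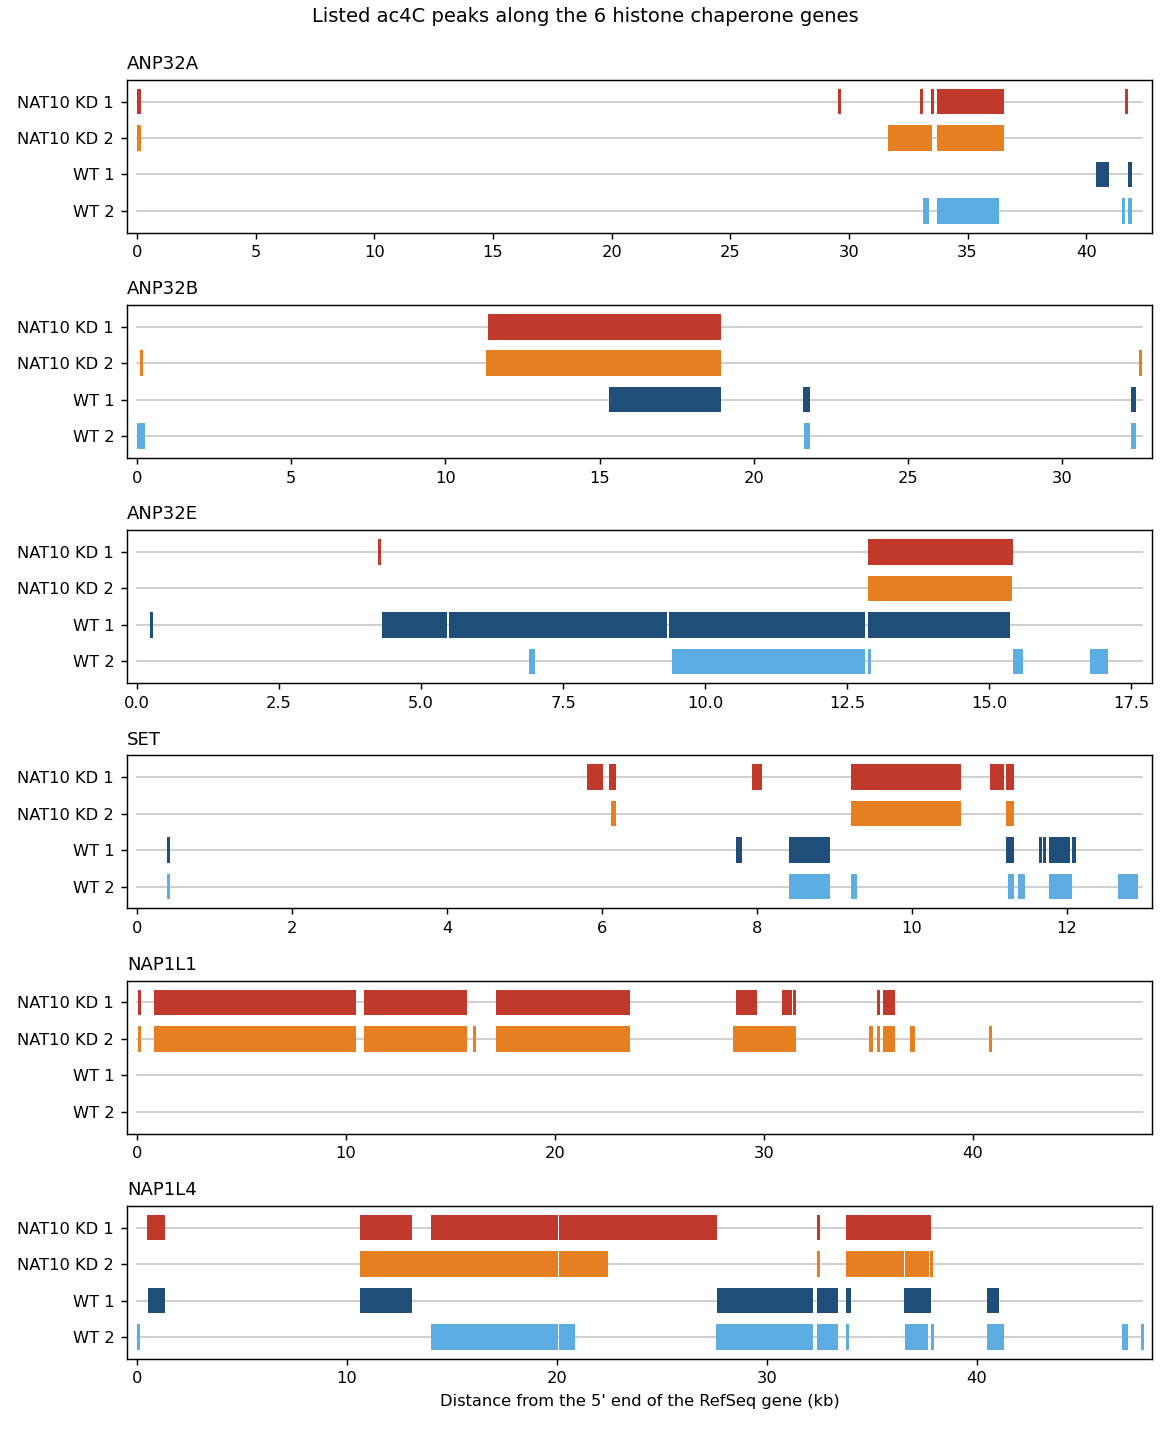
Listed peaks along each gene, by distance from the 5′ end of the RefSeq gene in kb (horizontal axis), with 1 row per library, knockdown rows above wild-type rows. Very short peaks are drawn slightly wider than they are. NAP1L1 has peaks in the knockdown rows only, and SET has 2 and 1 peaks in its last 2 kb in the knockdown rows, against 5 and 4 in the wild-type rows.

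NAP1L4 (ENSG00000205531), its paralog on the minus strand of chromosome 11 (2944437 to 2992329), showed no such absence. It had 6 and 7 peaks in the knockdown lists, against 8 and 12 in the wild-type lists, with no overlap between the groups (means 6.5 ± 0.707 in knockdown and 10 ± 2.83 in wild type, SD, n = 2 each). It held 4 of the 6 kept regions of all members: 2954527 to 2958556, 2958932 to 2959916, 2960117 to 2972245 and 2972271 to 2981702. Some were joined through other lists from peaks with no base in common. In 2960117 to 2972245 wild-type replicate 1 held only 2960117 to 2964714, and knockdown replicate 2 held only 2969891 to 2972245. In 2972271 to 2981702 wild-type replicate 1 held only 2979214 to 2981702, and wild-type replicate 2 held only 2972271 to 2978299. Among peaks in the stronger 50% of each list, the difference turned from -3.5 to 1.0. A region from 2951015 to 2951820 was held by both wild-type lists, at percentiles 97.2 and 47.9, and by neither knockdown list.

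SET (ENSG00000119335) lies on the plus strand of chromosome 9 from 128683424 to 128696396. It had 6 and 3 peaks in the knockdown lists, against 8 and 7 in the wild-type lists (means 4.5 ± 2.12 in knockdown and 7.5 ± 0.707 in wild type, SD, n = 2 each). The groups did not overlap. Its 15 regions comprised 3 lost, 1 gained and 1 kept. The kept one, 128694636 to 128694735, stood at percentiles 87.0 and 96.8 in knockdown and 67.1 and 33.5 in wild type. The lost ones, 128683807 to 128683831, 128691841 to 128692365 and 128695186 to 128695485, stood at percentiles 95.2, 94.5 and 98.7 in wild-type replicate 1 and 82.2, 85.0 and 72.9 in replicate 2. A 75 nt peak from 128691153 to 128691227 had a score of 255 in wild-type replicate 1, the highest of any member in wild type, and no counterpart in the other 3 lists. The knockdown lists shared a span of 1420 nt from 128692641 to 128694060 with the same bounds in both, of which wild-type replicate 2 held only the first 75 nt.

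ANP32A (ENSG00000140350), on the minus strand of chromosome 15 (68778535 to 68820895), had 6 and 3 peaks in the knockdown lists, against 2 and 4 in the wild-type lists. These overlap, and the difference of 1.5 was smaller than the spread within knockdown (SD 2.12, n = 2; exact permutation p = 0.667). Without knockdown replicate 1 it was 0. The lists also placed its peaks differently. A region at the very start of the gene, 68820729 to 68820878, was held by both knockdown lists, at percentiles 82.6 and 95.0, and by neither wild-type list. A region at its far end, 68778960 to 68779134, was held by both wild-type lists, at percentiles 66.1 and 72.8, and by neither knockdown list. The strongest region, 68784385 to 68787192, had scores of 40.8 and 220 in knockdown and 15 in wild-type replicate 2, and no peak in wild-type replicate 1.

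ANP32B (ENSG00000136938), on the plus strand of chromosome 9 (97983341 to 98015943), had 1 and 3 peaks in the knockdown lists, against 4 and 4 in the wild-type lists. The groups did not overlap (means 2.0 ± 1.41 in knockdown and 4.0 ± 0 in wild type, SD, n = 2 each). It held 3 lost regions, 98004955 to 98005154 and a pair of 50 nt near the end of the gene, 98015574 to 98015623 and 98015649 to 98015698. Both of these had the same bounds in the 2 wild-type lists. The single peak of knockdown replicate 1 spanned 97994711 to 98002282, at percentile 97.5, and replicate 2 held nearly the same span from 97994661 at percentile 88.9, while wild-type replicate 1 held only its second part from 97998636, at percentile 93.0.

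ANP32E (ENSG00000143401), on the minus strand of chromosome 1 (150218417 to 150236112), had 2 and 1 peaks in the knockdown lists, against 6 and 6 in the wild-type lists. The groups were furthest apart here among the kept members, with means of 1.5 ± 0.707 in knockdown and 6.0 ± 0 in wild type (SD, n = 2 each), a difference of -4.5 (exact permutation p = 0.333). Over all genes, 1307 of 10992 had a difference as low. Its lost regions, 150226779 to 150230612 and 150223291 to 150226703, lie next to each other in the middle of the gene. In the first of them wild-type replicate 1 held 1 span of 3834 nt and wild-type replicate 2 only a pair of 25 nt peaks. The neighbouring region 150220692 to 150223240 was kept, at percentiles 57.0 and 96.5 in knockdown and 52.8 and 39.8 in wild type, though the peak of wild-type replicate 2 was 50 nt long. At the gene's place in the numbering 4 and 3 numbers were unlisted in the knockdown lists, and 2 and 0 in the wild-type lists.

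Fewer peaks in both knockdown lists were common in the series, with 22.3% of all genes and 31.9% of the 3553 kept genes, beside 4 of the 6 members and 4 of the 5 kept ones, each with the smallest possible exact permutation p of 0.333. More peaks were found in 12.6% of kept genes and 0 kept members. The median difference was -3.0 peaks over the kept members and -1.0 over all kept genes. Dividing by list length narrowed the count. Per 10000 peaks of its list, ANP32B had 0.360 and 0.822 in knockdown and 1.05 and 1.05 in wild type. ANP32E had 0.720 and 0.274 against 1.58 and 1.57, again with no overlap. SET, at 2.16 and 0.822 against 2.11 and 1.83, and NAP1L4, at 2.16 and 1.92 against 2.11 and 3.15, then overlapped. On this scale 2 of the 5 kept members were lower without overlap, beside 27.2% of kept genes, and 0 were higher, beside 25.6%. Unlisted numbers limit these counts. At its place in the numbering ANP32B had 8 and 2 in the knockdown lists, against 5 and 1 in the wild-type lists. NAP1L4 had 15 and 2 against 3 and 2, and SET 3 and 3 against 6 and 3. Such numbers may belong to the member or to a gene beside it.

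**Figure D3:**
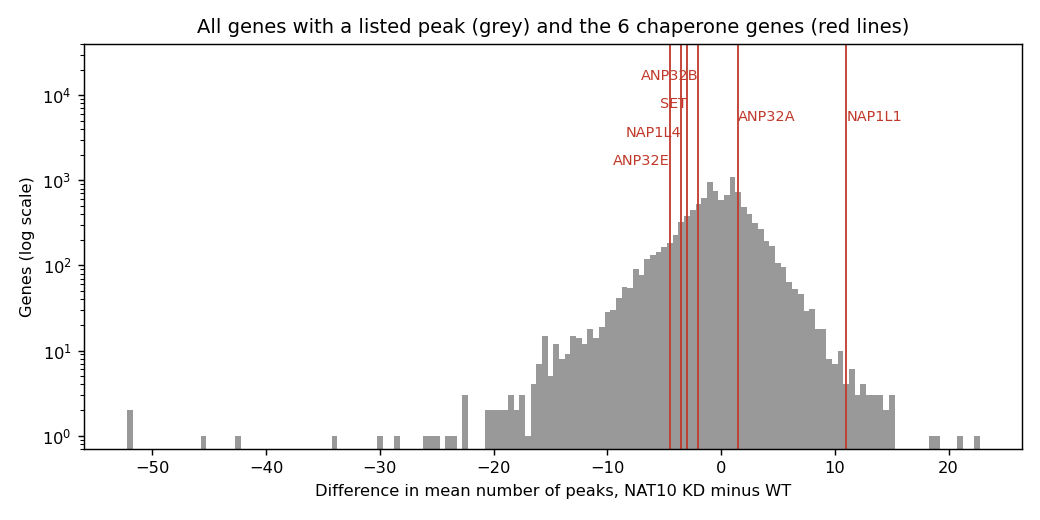
Difference in the mean number of listed peaks, NAT10 knockdown minus wild type (horizontal axis), for all 10992 genes with a listed peak, with the number of genes on a log scale (vertical axis). Red lines mark the 6 genes, from -4.5 for ANP32E to 11 for NAP1L1.

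The length covered by peaks was higher in knockdown where the number of peaks was lower for 3 of the 6 genes, ANP32B, SET and NAP1L4. ANP32B was covered over 7572 and 7772 bp in the knockdown lists, against 3947 and 525 bp in the wild-type lists. NAP1L4 was covered over 21105 and 15792 bp, against 10759 and 14782 bp, which is 44.1 and 33.0% of its gene in knockdown and 22.5 and 30.9% in wild type. SET was covered over 2120 and 1595 bp, against 1100 and 1350 bp, and ANP32A over 3183 and 4815 bp, against 692 and 3092 bp. These groups did not overlap. ANP32E was lower in length as in number, with 2574 and 2524 bp in knockdown, against 10929 and 4013 bp in wild type. NAP1L1 was covered over 23348 and 25007 bp in knockdown, 48.5 and 52.0% of its gene, and over 0 bp in wild type.

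More covered length in both knockdown lists was thus found in 4 of 5 kept members, beside 28.8% of kept genes, and less in 1, beside 24.6%. Over the 6 members it was 5 and 1, beside 23.8 and 20.2% of all genes. Each member's exact permutation p was 0.333. Fewer peaks together with more covered length, as in ANP32B, SET and NAP1L4, was found in 3.24% of kept genes. The added length lay in long spans, which can hold introns. Spans over 1000 nt made up 40.0 and 43.3% of the members' peaks in the knockdown lists, against 28.6 and 15.2% in the wild-type lists, while the lists as a whole stood at 25.3 and 24.9% and at 22.8 and 24.1%. With such spans left out, the difference in covered length turned to -313 bp for ANP32A, -338 bp for ANP32B, -788 bp for SET and -2141 bp for NAP1L4. All 5 kept members were then covered over less length in both knockdown lists than in either wild-type list, beside 34.4% of kept genes, and 0 over more, beside 16%. Some of these values lay at or near 0. ANP32E had 25 and 0 bp in knockdown, against 50 and 600 bp in wild type. ANP32B had 0 and 150 bp against 300 and 525 bp, and both genes were only partly listed in this setting.

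**Figure D4:**
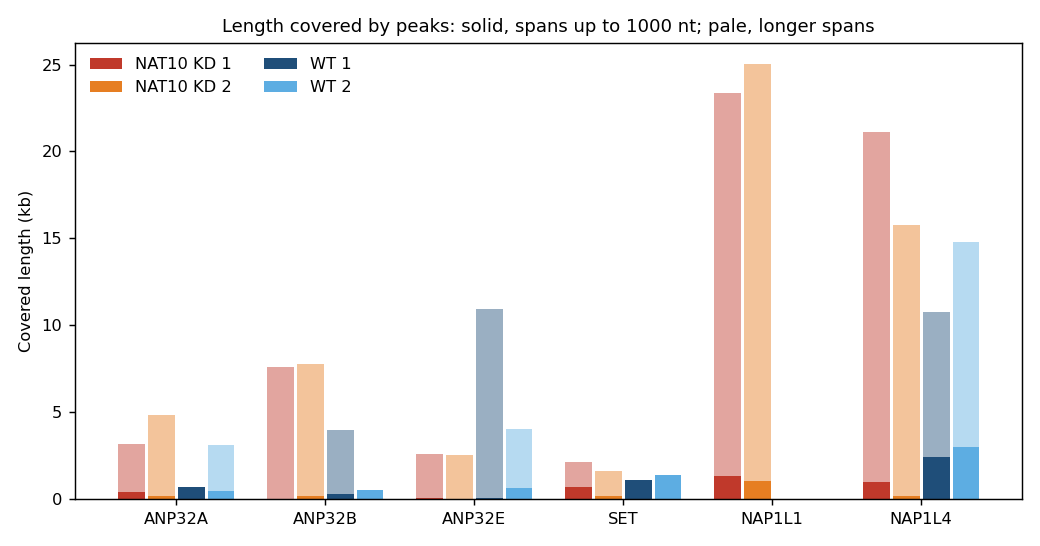
Length covered by listed peaks in kb (vertical axis) per gene and library, knockdown bars left of wild-type bars; the solid part comes from spans of up to 1000 nt and the pale part from longer ones. The pale part makes up most of the bars of NAP1L1 and NAP1L4, and the solid part is lower in knockdown for the 5 genes other than NAP1L1.

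Near the ends of ANP32A, ANP32B and SET, 3 of the 6 members, fewer peaks were listed in both knockdown lists. This window was chosen after the map of peaks had been seen. Within 2 kb of the end of the gene, by the midpoint of the peak, the members had 3 and 2 peaks in the knockdown lists, against 9 and 12 in the wild-type lists. These are 10 and 6.67% of their peaks, against 32.1 and 36.4%. Over all genes with a RefSeq span the shares were 17.3 and 19.7% in knockdown and 19.5 and 18.4% in wild type. ANP32A had 1 and 0 such peaks against 2 and 2, ANP32B 0 and 1 against 2 and 2, and SET 2 and 1 against 5 and 4. ANP32E, with 0 and 0 against 0 and 1, and NAP1L4, with 0 and 0 against 0 and 3, were not separated. Thus 3 of 5 kept members had fewer in both knockdown lists than in either wild-type list, beside 16.9% of kept genes, and 0 had more, beside 5.02%. The members' first 2 kb held 3 peaks in each of the 4 lists. NAP1L1 had none in its last 2 kb in any list, and its peaks add to the knockdown total only.

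Peaks of the members often had exactly the same bounds in both libraries of a genotype. This held for 9 peaks between the knockdown lists, 30.0% of the members' peaks in each, and for 7 between the wild-type lists, 25% of those in replicate 1 and 21.2% in replicate 2. Over all peaks the shares were 9.55 and 7.27% in knockdown and 4.67 and 4.65% in wild type. That set is unlike the members: it includes genes listed in a single library of a genotype, whose peaks there cannot match. No member was such a gene. Between a knockdown and a wild-type list 0 to 2 member peaks did so, 0 to 7.14% of the members' peaks in a list. Over all peaks the shares between genotypes were 2.301 to 3.293%. Of the 9 knockdown matches 5 lay in NAP1L1, which had no wild-type peak and so could not match between genotypes. Single edges were shared more widely: 12 of 175 distinct edges occurred in at least 3 lists, 6.86%, beside 2.35% of all edges. All edges include those of genes listed in too few libraries for this, which among the members holds for NAP1L1 only. Of these, 4 occurred in all 4 lists, at 150223240 in ANP32E, 128694735 in SET and 2958556 and 2959916 in NAP1L4. Whether these are exon borders was not tested, since no exon annotation was used.

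Scores of 100 or more made up a larger share of the members' peaks than of the whole list in 3 of the 4 lists. A score of 100 or more was reached by 2 of 30 and 5 of 30 member peaks in knockdown, and by 1 of 28 and 0 of 33 in wild type. Whole lists had 1.04 and 1.16% of such peaks in knockdown and 0.263 and 0.380% in wild type. The knockdown peaks lay in NAP1L1 (2 and 3), ANP32A (0 and 1) and SET (0 and 1), and the wild-type peak in SET.

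**Figure D5:**
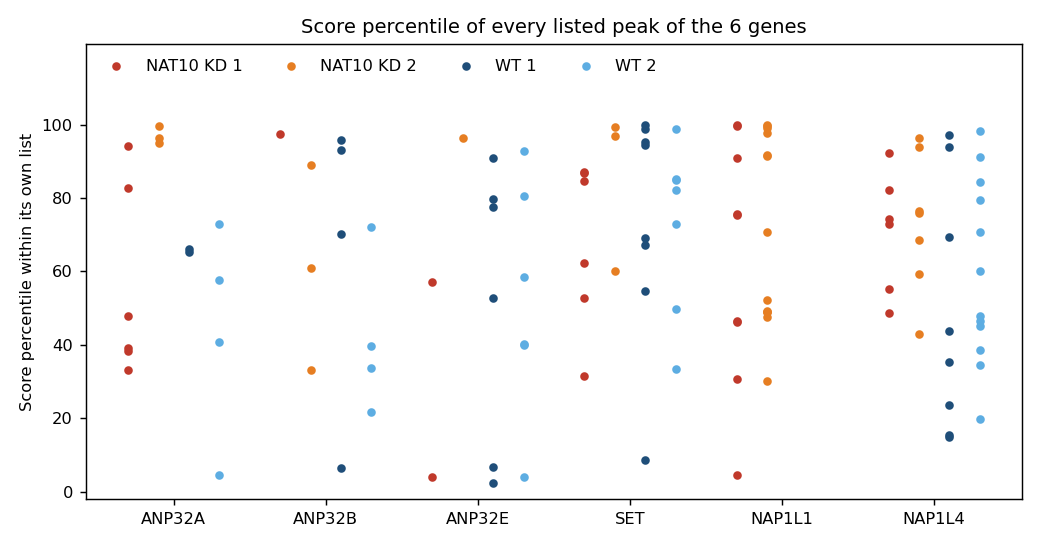
Percentile of the authors' score within its own list (vertical axis) for every listed peak of the 6 genes, 1 point per peak, knockdown libraries left of wild-type libraries. The highest peak of ANP32A stood at 94.2 and 99.8 in knockdown and 66.1 and 72.8 in wild type. That of NAP1L4 went the other way, at 92.3 and 96.3 against 97.2 and 98.1. Those of ANP32B, ANP32E and SET overlapped between genotypes. Percentiles of different lists are shown side by side and were not tested.

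Listed peaks reached into the start windows of 4 genes, ANP32A, ANP32B, SET and NAP1L4, of which 3 are shown. The windows run from 250 bases before to 50 after a RefSeq start site (GRCh38.p14, the same chromosome coordinates as hg38), and they are the ones in which a peak touches the first transcribed bases in both lists of a genotype (ANP32A, SET) or starts at the first base (ANP32B). Capitals mark the bases under the peak.
ANP32A, chr15:68820846-68821145, minus strand: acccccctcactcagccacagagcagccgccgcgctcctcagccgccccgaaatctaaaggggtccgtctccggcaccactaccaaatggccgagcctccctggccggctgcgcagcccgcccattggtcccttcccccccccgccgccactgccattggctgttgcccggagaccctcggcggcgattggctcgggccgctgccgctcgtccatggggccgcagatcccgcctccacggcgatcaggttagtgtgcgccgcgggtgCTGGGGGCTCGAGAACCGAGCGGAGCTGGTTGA
SET, chr9:128683543-128683842, plus strand: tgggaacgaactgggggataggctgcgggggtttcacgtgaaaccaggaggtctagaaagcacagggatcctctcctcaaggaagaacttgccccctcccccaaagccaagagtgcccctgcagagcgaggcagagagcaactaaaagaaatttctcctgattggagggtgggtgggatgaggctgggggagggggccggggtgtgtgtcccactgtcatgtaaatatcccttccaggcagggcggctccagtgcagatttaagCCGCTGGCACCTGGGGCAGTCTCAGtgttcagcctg
ANP32B, chr9:97983091-97983390, plus strand: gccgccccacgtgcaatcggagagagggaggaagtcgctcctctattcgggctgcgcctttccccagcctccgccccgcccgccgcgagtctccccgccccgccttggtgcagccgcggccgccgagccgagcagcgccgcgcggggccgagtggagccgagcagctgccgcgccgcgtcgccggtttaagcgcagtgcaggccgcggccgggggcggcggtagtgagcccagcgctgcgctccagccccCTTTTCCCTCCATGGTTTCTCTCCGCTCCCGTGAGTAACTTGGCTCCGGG
In ANP32A both knockdown lists held the peak, which covers bases 18 to 50 after the start and runs on beyond the window. In SET both wild-type lists held it, with the same bounds, at bases 15 to 39 after the second of 5 start sites that the table gives. In ANP32B wild-type replicate 2 held a peak from base 1, which runs on beyond the window to 97983590. A peak of knockdown replicate 2, 97983441 to 97983515, lay inside that peak but past the window. Neither replicate 1 list held a peak there. The share of C in the capitals was 21.2% in ANP32A, 36.0% in SET and 36.0% in ANP32B. Over the whole first 50 bases it was 22% in ANP32A, 26% in SET and 36% in ANP32B. The median over the first 50 bases of all 35116 windows was 28.0%. The motif CNNCNNCNN, reported for ac4C sites, occurred in the first 50 transcribed bases 0 times in ANP32A, 0 times in SET and 1 time in ANP32B on the transcript strand, with overlapping matches counted. It was present there in 55.5% of all windows, and on the other strand in 64.1%. Over all 12 windows of the members, some of which overlap, 8 held it on the transcript strand, among them 4 of the 5 of SET, the first of NAP1L4 with 3 matches, where wild-type replicate 2 had a peak over bases 3 to 50, and that of NAP1L1 with 10. NAP1L1 had no peak in its window, and its first knockdown peaks, at 76084577 to 76084626, lie just past it.

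The relatives and partners of these genes were listed unevenly. Of 12 family paralogs 4 had a peak in any list and none was lost, gained or kept: TSPYL2 had 6 and 7 peaks in knockdown and 0 and 2 in wild type, TSPYL1 4 and 2 against 0 and 6, NAP1L3 0 and 3 against 2 and 5, and TSPYL4 0 and 0 against 4 and 0. None of the 29 pseudogenes that RefSeq names after the members, 19 of them after SET, had a listed peak, and how reads shared with such copies were assigned is not given in the sources used here. Of 9 genes of protein phosphatase 2A, the enzyme that ANP32A and SET inhibit, 8 had a peak, 6 were kept and 0 were lost or gained. Of all genes with a peak, 32.3% were kept, 6.54% lost and 8.73% gained. Of 8 genes of H2A.Z and its exchange, 5 were kept, 4 had more and 2 had fewer peaks in both knockdown lists than in either wild-type list, beside 32.3, 16.6 and 22.3% of all genes. YEATS4, a reader subunit of the exchange complexes, was lost (0 and 0 peaks in knockdown, 3 and 2 in wild type), and RUVBL2, an ATPase of the same complexes, was gained (8 and 5 against 0 and 0). Of 4 genes of the SET complex, HMGB2, which binds DNA, was gained (3 and 6 against 0 and 0), APEX1, a DNA repair nuclease, was kept (2 and 3 against 10 and 4), and 2 had no listed peak. Of 3 nucleoplasmin genes, NPM1 was kept (4 and 2 against 12 and 9) and NPM3 had 3 peaks, in wild-type replicate 2 alone. APEX1, NPM1, NPM3 and the paralogs above were named after their values were seen.

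Among 24 other histone chaperone genes, all with a peak, 16 were kept, 1 lost and 1 gained, beside 32.3, 6.54 and 8.73% of all genes. DNAJC9, a heat shock co-chaperone of histones, was lost (0 and 0 in knockdown, 4 and 2 in wild type). HIRIP3, a partner of the chaperone HIRA, was gained (3 and 7 against 0 and 0). Of these 24, 2 had more and 9 had fewer peaks in both knockdown lists than in either wild-type list, beside 16.6 and 22.3% of all genes.

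The genes most like each member were sought by the Euclidean distance of log2(peaks + 1) over the 4 lists. PLD2 had the same numbers as NAP1L1, followed by BRPF3 (distance 0.11). HUS1, DNAJC3 and MPHOSPH9 had the same numbers as ANP32A, ANP32B and ANP32E, in that order. SET was nearest to ATL3 and RAB11FIP1 (0.28 each) and SMARCD1 (0.31), and NAP1L4 to UNC5D (0.11), KIF5C (0.17) and PEAK1 (0.25). BASP1 (0.22) and PTPRJ (0.33) followed for ANP32A, TRMT5 (0.26) and PSMG1 (0.32) for ANP32B, and ZFAND6 and CDC20 (0.22 each) for ANP32E. With 4 small numbers per gene such likeness is a description only.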

How the data were processed

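Per the labels' protocols, RNA depleted of ribosomal RNA was cut to about 200 nt and captured with an ac4C antibody, and libraries kept the strand. The submitters' processing notes name build hg38 and the tools bedtools 2.30.0, SAMtools 1.12, fastp 0.21.1 and HISAT2 2.2.1. How peaks were called, against which control and with which annotation is not given in the sources used here. Per the file headers, each deposited list gives a peak's coordinates, number, score, strand, gene identifier and symbol. The score is the authors' own, without a stated meaning: no score was below 10, and 1 to 24 per list were infinite. Starts count from 0 in the deposited lists and from 1 here.

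Lists were matched to the immunoprecipitation libraries by name. Python 3.11.15, pandas 2.3.3 and numpy 2.4.6 counted peaks and covered length per gene, joined same-strand peaks with 1 bp or more in common into regions, and ranked scores within a list. Differences are knockdown minus wild type, tested by two-sided exact permutation of the libraries (6 arrangements). The functions were tested on simulated lists with 200 changed genes. Between 96.7 and 97.0% of peaks followed the order of gene identifiers, which gave the place of unlisted numbers. All 6 members matched a RefSeq gene (GRCh38.p14) and 5 had a promoter window; 120 of 121 member peaks lay within the RefSeq span.

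The members, gene lists and tests were chosen with earlier results of these data known. Named genes were the members, the 3 genes nearest to each, of which 1 is not reported here, and the lost or gained genes of the lists. APEX1, NPM1, NPM3, OTX2, NAP1L3, TSPYL1, TSPYL2 and TSPYL4 lie outside this rule, and DNMT3B is of the marker list; they were named after their values were seen. Alternatives were a 50% overlap, both strands, spans up to 1000 nt, the stronger 50% of each list, scaling to list length, any symbol within the members' peaks, the replicate number as a block, and each library left out.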

Additional observations from a re-analysis of the deposited data

How the results depend on the processing

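No gene could pass the permutation test, so directions and counts were compared. Of the alternatives, 117 values kept their direction or stayed within 1.5 times the count, 10 moved beyond this and 5 reversed. The 117 include settings that left every value as it was and so say nothing of robustness. These are the replicate number as a block, which cannot change a difference, both strands, and any symbol within the members' peaks. No other gene had a peak over the members' genes on either strand. With spans over 1000 nt left out, the difference in covered length (knockdown minus wild type) turned to -313 bp for ANP32A, -338 bp for ANP32B, -788 bp for SET and -2141 bp for NAP1L4. The members then counted 3 kept genes in place of 5 (ANP32B and ANP32E were partly listed), 5 gained regions in place of 9 and 2 kept regions in place of 6. With the stronger 50% of each list the NAP1L4 difference was 1.0 peaks, and there were 5 lost regions in place of 10 and 2 kept. Leaving out 1 library gave 10 to 21 lost regions, the highest without wild-type replicate 1 (18 without wild-type replicate 2), 10 to 19 gained ones (19 without knockdown replicate 2, 16 without knockdown replicate 1) and 5 to 9 kept ones. These settings raise the shares over all regions too: lost regions were 38.2% of the members' and 35.1% of all regions without wild-type replicate 1, and 34.6 and 34.9% without wild-type replicate 2. Gained ones were 27.1 and 28.4% without knockdown replicate 1, and 31.7 and 22.2% without knockdown replicate 2. The members' larger share of lost regions is thus not seen without wild-type replicate 2, nor that of gained regions without knockdown replicate 1. Most of the gained regions found with all 4 lists lay in NAP1L1. Over the same settings the difference in peaks ran from 0 to 3.0 for ANP32A, -3.0 to -1.0 for ANP32B, -5.0 to -4.0 for ANP32E, -4.5 to -1.5 for SET, 9.0 to 13.0 for NAP1L1 and -5.5 to -1.5 for NAP1L4. The smallest of these sizes came without knockdown replicate 1 for ANP32A and ANP32B, without knockdown replicate 2 for ANP32E, SET and NAP1L1, and without wild-type replicate 2 for NAP1L4. Covered length ran from 907 to 3307 bp for ANP32A, from 3725 to 7147 bp for ANP32B, from 370 to 895 bp for SET, from 23348 to 25007 bp for NAP1L1 and from 3021.5 to 8334.5 bp for NAP1L4, and from -8380 to -1464 bp for ANP32E, -1464 bp being the value without wild-type replicate 1. NAP1L1 stayed gained under each alternative run for gene class. Leaving out 1 library could not change the class of any member, since each was kept or gained. Those values among the 117 thus say nothing of robustness either. The other settings only take peaks away, so they could not give NAP1L1 a wild-type peak. The replicate number as a block leaves every difference as it is (11 peaks for NAP1L1), and its smallest exact p is 0.5; same-numbered libraries did not deviate together (r = 0.0152 over 10992 genes), so the numbers are not taken to pair them. Depth is unknown.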
